A study of Mus musculus with 18 samples.

Results

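The semaphorins are guidance cues, and the plexins and neuropilins are the receptors that read them. All genes with a symbol made of Sema with a class number and letter, or Plxn with a class letter and number, were taken, with Nrp1 and Nrp2 added, from the probe sets that name 1 gene. This gave 31 of the 18820 genes measured: 20 semaphorins, 9 plexins and 2 neuropilins. They were followed in mouse fibroblasts that lose Ezh2, the main catalytic subunit of PRC2, the complex that places the repressive mark H3K27me3.

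Semaphorins act over short range to repel or attract axons, endothelial cells and migrating mesenchymal cells. Class 3 members are secreted and mostly signal through a neuropilin, which binds the ligand, joined to a plexin A, which carries the signal into the cell. The other vertebrate classes sit in the membrane and bind plexins directly, and an activated plexin acts on small GTPases and loosens adhesion and the actin cytoskeleton. Fibroblasts and their embryonic precursors are known sources of several class 3 ligands.

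The data are 18 Affymetrix Mouse Gene ST arrays of RNA, 2 for each of 9 groups. All cells were iMEFs of clone C2, a c-Myc-transformed line grown from a single cell of a pool of Ezh2 flox/Δ mouse embryonic fibroblasts that carry ROSA26-CreERT2, a ubiquitous Cre switched on by tamoxifen, so the results describe 1 clone. Experiment 2 was a time course with cells given vehicle (ethanol) and cells taken 5, 18 and 32 days after tamoxifen. Experiment 3 held Ezh2 WT control cells, Ezh2 -/- cells (called Ezh2 null here), and 3 rescues in which Flag-tagged Ezh1 or Ezh2 came from a retrovirus selected with hygromycin: Ezh1 and Ezh2 predeletion rescue, where the virus was in place before the endogenous gene was removed, and Ezh2 post-deletion rescue, where it was added afterward. The comparisons ask which genes move when Ezh2 is lost, how soon, and which are held or brought back by the exogenous enzyme.

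Values are log2 RMA intensities, and a change is a difference of group means on that scale with its standard error (SE) from limma. The words rose and fell are kept for an adjusted p under 0.05 by limma with Benjamini-Hochberg adjustment over all 18820 genes, two-sided, with n = 2 arrays in each group. The rescue fit took the replicate number as a block, because the study's methods describe a replicate batch there, and the time course fit did not. The labels do not say that the 2 arrays of a group came from separate cultures. A legend of the paper names 2 biological replicates for the time course and for the control, null and predeletion rescue cells. No such statement was found for the post-deletion rescue, and how the replicates were separated is not given. The p-values measure the spread between arrays. The number of arrays limits the precision throughout. Probe sets differ in brightness for reasons other than transcript level, so no gene was ranked against another by level. The 2 experiments were normalized apart, with array medians of 5.50 to 5.70 in the time course and 6.5 to 6.66 in the rescue experiment, so levels were compared only within each. The Ezh2 probe set goes against the loss that the labels give: it lay between 9.20 and 9.81 on the 8 time course arrays and was higher than vehicle at day 18 (0.32, adjusted p = 0.02) and day 32 (0.38, adjusted p = 0.0068). In cells labelled Ezh2 null it read 10.46 and 10.48, against 10.36 and 10.56 in control (0.01, adjusted p = 0.99). With Ezh2 from the retrovirus the probe set read 11.84 to 12.55. The study's methods say that tamoxifen deletes a region of the SET domain. Whether the probe set covers that region is not given in the sources used here. The paper followed Ezh2 protein and H3K27me3 by Western blot in this model and reports a drastic loss of the mark, only partial at day 5. These arrays do not show the Ezh2 loss themselves, so it rests on the labels and those blots. Ezh2 null stands for the cells so labelled. Of 12 fibroblast markers, 11 lay above the median gene in the time course, and Thy1 lay at percentile 35.1. None of the 6 endothelial or 5 epithelial markers lay above it, against 1 of 6 neuronal, 1 of 3 glial and 1 of 5 blood cell markers. The fibroblast list was not flat: 5, 2 and 1 of its markers rose over the 3 days, while 1, 3 and 4 fell. S100a4 changed by −1.57, −0.12 and −0.60, Fn1 by −0.08, −0.54 and −0.46, and Twist1 by 0.58, 0.49 and 0.53. The fibroblast list mean was 8.96 to 9.28 on single arrays, and the part of these markers was not tested. Glial markers were not flat either. S100b changed by −1.25 at day 18 and −1.31 at day 32, Gfap by −1.22 to −1.48 over the 3 days, and the third, Sox10, by 0.11 to −0.25. The mean of the 3 on single arrays ranged from 4.94 to 6.19, and its part in the changes below was not tested. Of the 6 neuronal markers, 1, 2 and 2 rose and 0 fell over the 3 days, Map2 by 0.44, 0.90 and 0.92, while Nefl changed by −0.15, −0.10 and −0.20, with a list mean of 3.91 to 4.18 on single arrays, and the endothelial marker Tek by 1.53 at day 5. Their part was not tested either.

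Of the 31 genes, 17 lay above the median gene in the time course and 16 in the rescue experiment. At day 5, 6 rose and 3 fell, where 11.0% of all genes rose and 5.72% fell. At day 18, 11 rose and 4 fell (all genes 15.2% and 10.5%), and at day 32, 9 rose and 8 fell (18.4% and 14.2%). Of these, 2 rose and 1 fell at least 2-fold at day 5, where 182 and 35 of the 18820 genes did. At day 18 it was 3 and 3 (all genes 396 and 177), and at day 32 it was 4 and 2 (484 and 312). The median change of the 31 was 0.02, 0.05 and −0.04 at the 3 days, against −0.01, −0.02 and −0.02 for all genes. So the family did not shift as a whole: a few members moved far, in both directions. Sema3a, Sema3c, Sema3e, Sema3f and Sema6a passed the test on all 3 days, and 20 members passed on at least 1. The shares of all genes that did so were not computed, so these counts have no background here. The split depends on the scaling. With each array's median subtracted, which puts the median of all genes at −0.15, −0.18 and −0.14, the day 5 split was 6 up and 8 down, that of day 18 was 10 and 8, and that of day 32 was 8 and 13. In bulk RNA, a change in the number of cells that express a gene and a change in RNA per cell cannot be told apart.

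**Figure D1:**
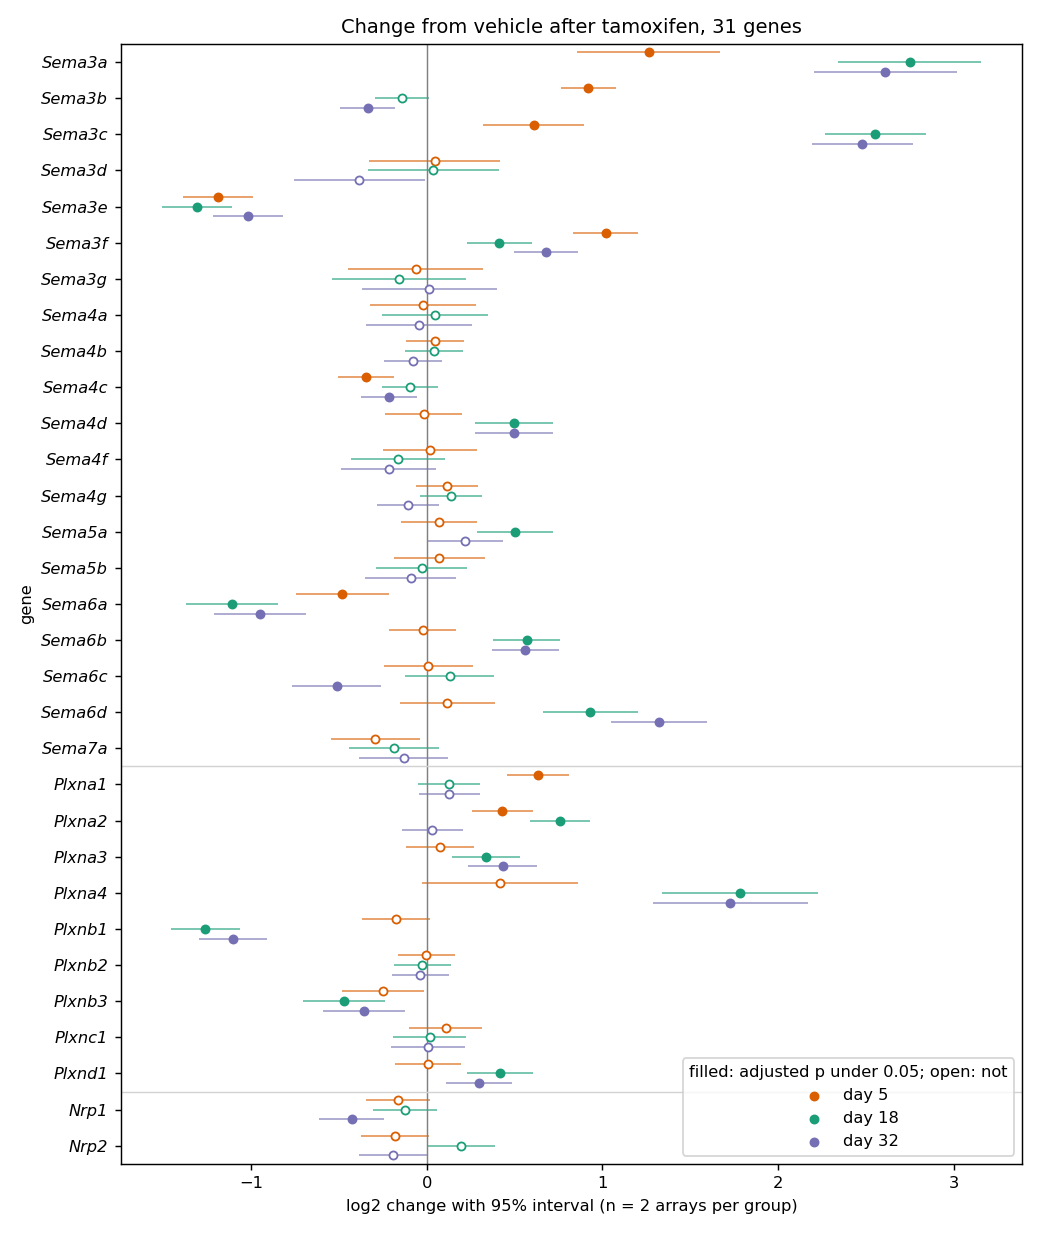
Log2 change from vehicle at days 5, 18 and 32 for the 31 genes, with 95% intervals (n = 2 arrays per group); filled points have an adjusted p under 0.05 by limma. Sema3a, Sema3c and Plxna4 lie far to the right at days 18 and 32, while Sema3e, Sema6a and Plxnb1 lie to the left.

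The secreted ligands held the largest changes. Of 7 class 3 semaphorins, 4 rose and 1 fell at day 5, 3 rose and 1 fell at day 18, and 3 rose and 2 fell at day 32, where 11.0%, 15.2% and 18.4% of all genes rose and 5.72%, 10.5% and 14.2% fell. Of the 7, 4 lie in 1 stretch of chromosome 5, in the order Sema3d, Sema3a, Sema3e, Sema3c, with 0, 3 and 15 other protein-coding genes between neighbours. Neighbours did not move alike: Sema3a and Sema3c rose, Sema3e between them fell, and Sema3d did not pass the test. The 250 bases before the RefSeq start (GRCm38.p6, plus strand) are shown for the 3 that changed, because mammalian PRC2 is known to sit mostly at CG-rich promoters and these starts differ widely in CG content. CG, which reads the same on both strands, is in capitals.
Sema3a, chr5:13396534-13396783: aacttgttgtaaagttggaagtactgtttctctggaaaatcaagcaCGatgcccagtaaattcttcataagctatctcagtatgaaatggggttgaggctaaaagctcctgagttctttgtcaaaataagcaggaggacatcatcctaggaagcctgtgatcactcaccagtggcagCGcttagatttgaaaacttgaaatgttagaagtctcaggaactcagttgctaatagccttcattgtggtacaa
Sema3c, chr5:17574566-17574815: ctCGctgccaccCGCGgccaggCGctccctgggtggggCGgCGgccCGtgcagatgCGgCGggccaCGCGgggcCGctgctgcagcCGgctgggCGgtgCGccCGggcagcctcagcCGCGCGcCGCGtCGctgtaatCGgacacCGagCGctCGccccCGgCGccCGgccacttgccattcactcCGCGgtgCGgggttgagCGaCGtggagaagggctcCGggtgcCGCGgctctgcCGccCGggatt
Sema3e, chr5:14025026-14025275: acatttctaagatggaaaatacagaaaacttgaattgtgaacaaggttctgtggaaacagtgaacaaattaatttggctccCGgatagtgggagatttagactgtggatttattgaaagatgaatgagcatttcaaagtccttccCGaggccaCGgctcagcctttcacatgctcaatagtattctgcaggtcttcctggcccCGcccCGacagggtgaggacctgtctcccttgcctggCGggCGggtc

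The Sema3c window holds 39 CG, a count that 1.56% of 32851 mouse starts reach. The Sema3a window holds 2, a count that 81.2% of starts reach, and that of Sema3e holds 7, which 46.3% reach. The median over all starts was 6. A start was found for 26 of the 31 members (not for Plxna1, Plxna4, Sema3b, Sema3f and Sema6a), and the median over their 37 starts was 13. Taking each gene's start with the most CG, the 9 members that rose at day 18 held 2 to 39 (median 16), the 3 that fell held 3 to 30 (median 7), and the 14 that did not pass held 4 to 32 (median 18). The ranges overlap almost entirely, and the ligands that rose most at day 18, Sema3a and Sema3c, stand at opposite ends of the range.

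Sema3a, the classical axon repellent that signals through Nrp1 and plexin A, rose early and further by day 18. The vehicle arrays read 4.69 and 5.29, day 5 arrays 6.35 and 6.15, day 18 arrays 7.62 and 7.86, and day 32 arrays 7.72 and 7.47. Every array after tamoxifen was above both vehicle arrays. The change was 1.26 ± 0.18 (SE, adjusted p = 0.00155) at day 5, 2.75 ± 0.18 (6.73-fold, 6.83e-06) at day 18, and 2.61 ± 0.18 (6.10-fold, 6.29e-06) at day 32. The step from day 5 to day 18 was itself past the test (1.49, adjusted p = 0.000192), and that from day 18 to day 32 was −0.14 (adjusted p = 0.748).

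Sema3c, a secreted ligand of both neuropilins needed for the cardiac outflow tract, made most of its rise after day 5. Its arrays read 4.92 and 5.23 with vehicle, 5.73 and 5.64 on day 5, 7.64 and 7.61 on day 18, then 7.39 and 7.72 on day 32. Here too no treated array overlapped the vehicle arrays. The change was 0.61 ± 0.13 at day 5 (adjusted p = 0.0105), 2.55 ± 0.13 at day 18 (5.88-fold, 1.26e-06) and 2.48 ± 0.13 at day 32 (5.58-fold, 1.04e-06). The day 5 call was lost without vehicle replicate 1 or day 5 replicate 1, with adjusted p up to 0.0743.

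Sema3e, which unlike other class 3 ligands binds Plxnd1 without a neuropilin, fell at once and stayed low. It read 6.87 and 7.10 with vehicle, 5.75 and 5.84 on day 5, 5.65 and 5.70 on day 18, then 5.96 and 5.97 on day 32. The changes were −1.19 ± 0.09, −1.31 ± 0.09 and −1.02 ± 0.09, that is 2.28-fold, 2.48-fold and 2.02-fold lower, with adjusted p of 4.04e-05, 7.95e-06 and 2.4e-05. Its receptor Plxnd1 did not pass at day 5 (0.01) and rose modestly at day 18 (0.42 ± 0.08, adjusted p = 0.00499) and day 32 (0.30 ± 0.08, adjusted p = 0.022). The day 32 call of Plxnd1 was lost without any 1 of the 4 arrays (adjusted p 0.0647 to 0.0915) and under median centring (0.132) and quantile normalization (0.0674).

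Sema3f and Sema3b, neighbours on chromosome 9 with 3 protein-coding genes between them, were both highest at day 5. Sema3f, a ligand of Nrp2, read 8.15 and 8.02 with vehicle, 9.09 and 9.12 on day 5, 8.42 and 8.57 on day 18, then 8.78 and 8.74 on day 32. It rose by 1.02 ± 0.08 at day 5 (2.03-fold, adjusted p = 6.5e-05), and was still higher at day 18 (0.41) and day 32 (0.68), having dropped by 0.61 from day 5 to day 18 (adjusted p = 0.00037). Sema3b, a ligand of the same receptors lost in some tumours, read 4.94 and 4.88, then 5.82 and 5.84, then 4.77 and 4.76, then 4.59 and 4.56. Its day 5 rise was 0.92 ± 0.07 (adjusted p = 4.29e-05). It fell by 1.06 on the log2 scale from day 5 to day 18 (adjusted p = 3.94e-06) and ended below vehicle at day 32 (−0.34 ± 0.07, adjusted p = 0.00442). Both day 5 rises were therefore partly or wholly undone by day 18, unlike those of Sema3a and Sema3c. Sema3d, also secreted, read 5.64 and 6.24 with vehicle and 5.48 to 6.09 on the treated arrays, and did not pass on any day. Sema3g, a ligand of Nrp2, changed by at most 0.16.

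**Figure D2:**
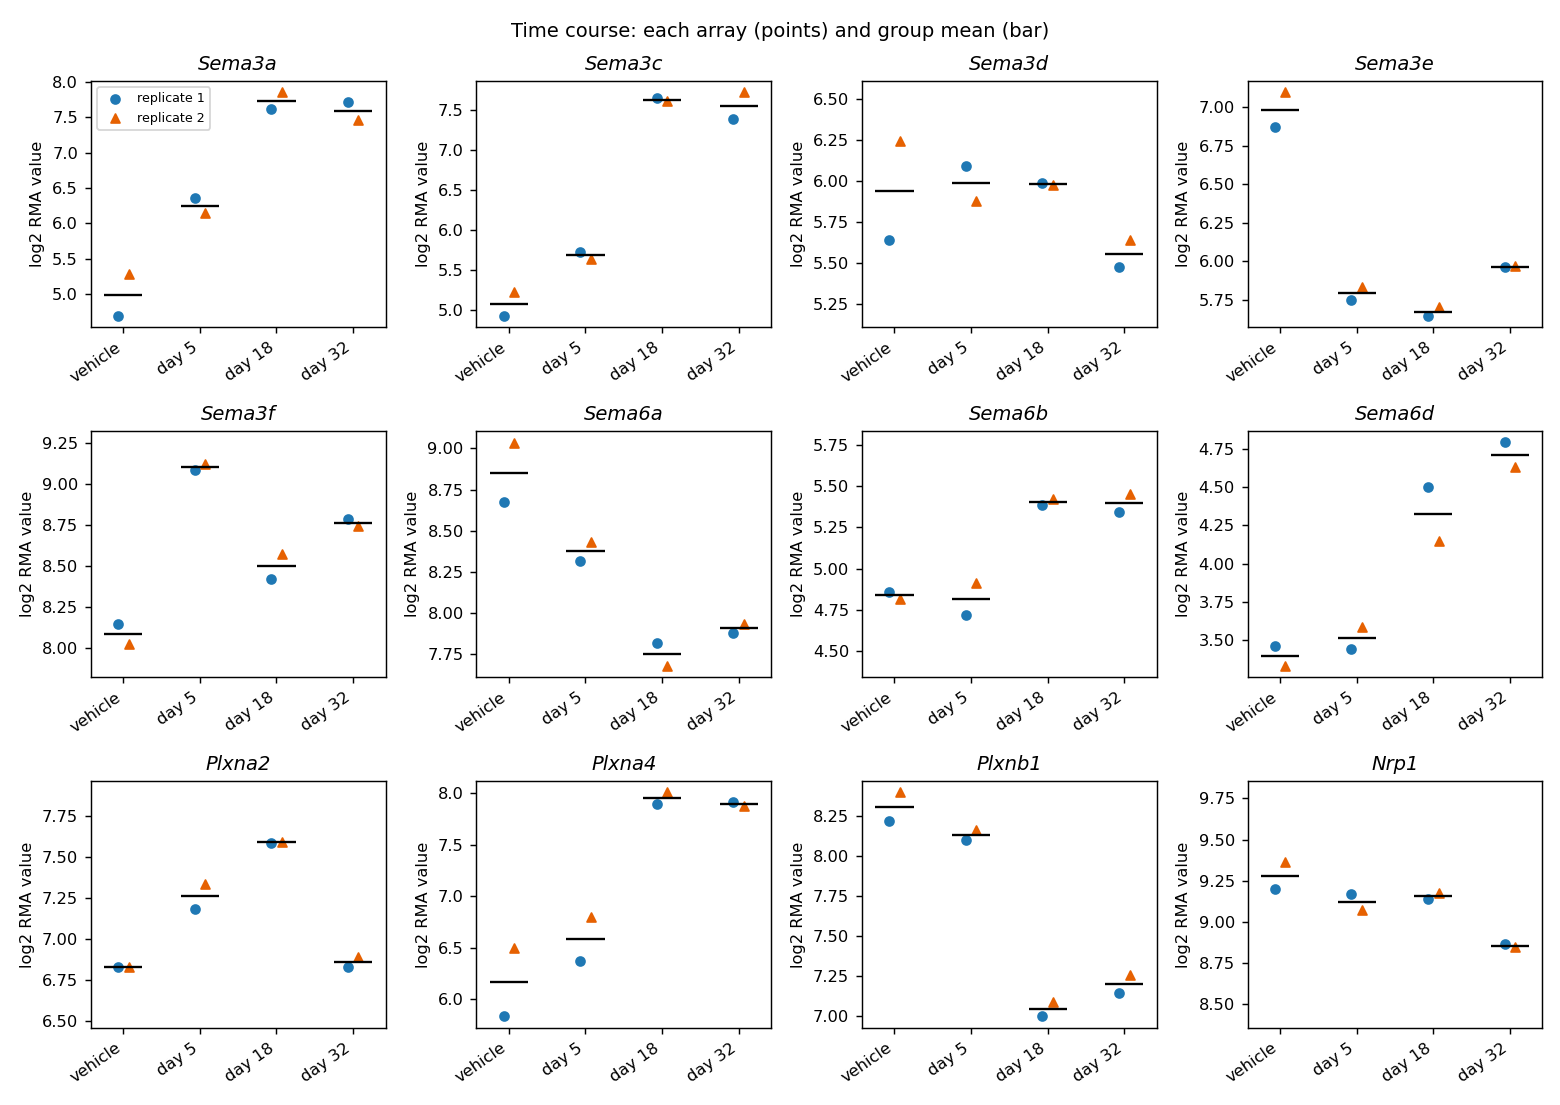
Log2 RMA value on each time course array (circles, replicate 1; triangles, replicate 2) with the group mean as a bar, for 12 of the 31 genes; axes differ between panels and none spans less than 1.5 log2 units. Sema3a, Sema3c and Plxna4 climb by day 18 and are also high at day 32, Sema3f is highest at day 5, Plxna2 peaks at day 18, and Plxnb1 drops between days 5 and 18.

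The membrane-bound classes 4, 5 and 7 changed little. Of 6 class 4 genes, Sema4d, the ligand of Plxnb1, rose at day 18 (0.50 ± 0.10, adjusted p = 0.00494) and day 32 (0.50 ± 0.10, adjusted p = 0.00362), from 3.67 and 3.75 with vehicle to between 4.08 and 4.33. Sema4c, a ligand of Plxnb2, fell by 0.35 on day 5 (adjusted p = 0.00914) and by 0.22 on day 32 (0.041). The first call was lost without day 5 replicate 1 (0.0655) and the second without any 1 of the 4 arrays, up to 0.168, and with the replicate number as a block (0.0591). Sema4a, Sema4b, Sema4f and Sema4g did not pass in any comparison. Sema5a, which carries thrombospondin repeats, rose at day 18 (0.50 ± 0.10, adjusted p = 0.00408) and stood 0.22 above vehicle at day 32, short of the test. Sema5b and Sema7a, the latter held by a lipid anchor and known to bind Plxnc1, did not pass either, and Plxnc1 itself changed by at most 0.11.

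All 4 class 6 semaphorins, transmembrane proteins that bind plexin A receptors, differed from vehicle at day 32. Sema6a, a ligand of Plxna2 and Plxna4, read 8.67 and 9.04 with vehicle, 8.32 and 8.43 on day 5, 7.82 and 7.68 on day 18, then 7.88 and 7.93 on day 32. It fell by 0.48 on the log2 scale at day 5 (adjusted p = 0.0205), by 1.11 at day 18 (2.16-fold, adjusted p = 0.000111) and by 0.95 at day 32 (adjusted p = 0.000192). Its day 5 call was lost without vehicle replicate 2, day 5 replicate 1 or day 5 replicate 2, up to an adjusted p of 0.123. Sema6d, a ligand of Plxna1, moved the other way and was among the dimmer probe sets: 3.46 and 3.33 with vehicle, 3.44 and 3.58 on day 5, 4.50 and 4.15 on day 18, then 4.79 and 4.63 on day 32. Its day 5 arrays overlapped vehicle, and the rise was 0.93 ± 0.12 by day 18 (adjusted p = 0.000408) and 1.32 ± 0.12 at day 32 (2.50-fold, 3.25e-05).

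Sema6b, a ligand of Plxna4, read 4.86 and 4.82 with vehicle, 4.72 and 4.91 on day 5, 5.39 and 5.42 on day 18, then 5.34 and 5.45 on day 32. Like Sema6d it was level with vehicle at day 5 and rose afterward, by 0.57 ± 0.09 on day 18 (adjusted p = 0.001) and 0.56 ± 0.09 on day 32 (0.000739). Sema6c did not pass before day 32 and dropped by 0.64 between days 18 and 32 (adjusted p = 0.0153), to 0.51 below vehicle (adjusted p = 0.00611). That late drop lost its call without day 18 replicate 1, day 18 replicate 2 or day 32 replicate 2 (up to 0.114), and the difference from vehicle without day 32 replicate 2 (0.0529).

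The plexins were counted by subfamily. Plexins A, the signalling partners of neuropilins and direct receptors of class 6 ligands, had 2, 3 and 2 of 4 members up at the 3 days and 0 down. Plexins B, the receptors of class 4 and Sema5a ligands, had 0 of 3 up and 0, 2 and 2 down. Of all genes, 11.0%, 15.2% and 18.4% rose and 5.72%, 10.5% and 14.2% fell at these days. The subfamilies are small, and the difference between them was not tested.

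Plxna4 changed most among the receptors. It read 5.84 and 6.49 with vehicle, 6.37 and 6.80 on day 5, 7.89 and 8.01 on day 18, then 7.91 and 7.87 on day 32. The day 5 and vehicle arrays overlapped (0.42 ± 0.20, adjusted p = 0.196), and the later ones did not: 1.78 ± 0.20 at day 18 (3.44-fold, adjusted p = 0.00015) and 1.73 ± 0.20 at day 32 (3.32-fold, adjusted p = 0.000123). Of its class 6 ligands, Sema6b rose at days 18 and 32 as well, and Sema6a fell.

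The other plexins A changed less, Plxna1 and Plxna2 only for a time. Plxna2 read 6.83 on both vehicle arrays, 7.19 and 7.33 on day 5, 7.58 and 7.59 on day 18, then 6.83 and 6.89 on day 32. Its rise was 0.43 on day 5 (adjusted p = 0.00468) and 0.76 on day 18 (8.63e-05), and from day 18 to day 32 it fell by 0.73 (adjusted p = 0.00134), which returned it to within 0.03 of vehicle. Plxna1, the receptor of Sema6d and of Sema3a with Nrp1, was high at day 5 only, at 9.03 and 9.20 against 8.49 and 8.48 with vehicle (0.63 ± 0.08, adjusted p = 0.000718), and then fell by 0.50 (adjusted p = 0.000848). Plxna3, which pairs with Nrp2 for Sema3f, rose by 0.34 on day 18 (adjusted p = 0.0178) and by 0.43 on day 32 (0.00375). The day 18 call of Plxna3 was lost without vehicle replicate 1, day 18 replicate 1 or day 18 replicate 2, up to 0.0814, and under median centring (0.101) and quantile normalization (0.112).

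Plxnb1, the receptor of Sema4d and a partner of the Met kinase, read 8.22 and 8.40 with vehicle, 8.10 and 8.16 on day 5, 7.0 and 7.09 on day 18, then 7.15 and 7.26 on day 32. The fall came between days 5 and 18 (−1.09, adjusted p = 1.32e-05) and left it 2.40-fold below vehicle at day 18 (−1.26 ± 0.09, adjusted p = 8.61e-06) and 2.15-fold at day 32 (−1.1 ± 0.09, adjusted p = 1.28e-05). A second, dimmer Plxnb1 probe set (mean 4.46 against 7.67) changed by 0.09 and −0.19 at those days, so the fall was seen on the brighter one alone. The mean of both changed by −0.58 and −0.65, still past the test. Sema6b also had 2 probe sets, with equal values. Plxnb3, the receptor of Sema5a, fell by 0.47 (adjusted p = 0.0087) and 0.36 (adjusted p = 0.0247). Its day 18 call was lost without day 18 replicate 2 (0.0678), and its day 32 call without vehicle replicate 2, day 32 replicate 1 or day 32 replicate 2 (up to 0.14). Plxnb2, the receptor of Sema4c, changed by at most 0.04.

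The neuropilins changed little. Nrp1, which binds class 3 ligands and VEGF, read 9.20 and 9.37 with vehicle, 9.17 and 9.07 on day 5, 9.14 and 9.17 on day 18, then 8.86 and 8.84 on day 32. Only the day 32 arrays passed the test (−0.43 ± 0.08, adjusted p = 0.0028). Nrp2 read 8.99 and 8.89 with vehicle and between 8.64 and 9.16 afterward, within 0.20 of vehicle at each day. It rose by 0.38 from day 5 to day 18 (adjusted p = 0.00804) and fell by 0.39 from day 18 to day 32 (adjusted p = 0.0398). The first step lost its call without day 18 replicate 1 (0.0537), and the second without any 1 of its 4 arrays (up to 0.221), under median centring (0.0655) and with the replicate number as a block (0.0609). Sema3a and Sema3c thus rose over 2 log2 units while neither of their co-receptors moved by more than 0.43 from vehicle.

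In all, 11 members passed in no comparison with vehicle, with changes of at most 0.38, and 7 of these lay below the median gene, where arrays resolve small changes poorly. The share of all genes that passed in none was not computed. Between days 5 and 18, 12 members rose and 5 fell (all genes 15.6% and 16.1%), and between days 18 and 32, 0 rose and 3 fell (1.40% and 2.75%). The 3 were Plxna2, Sema6c and Nrp2. The plateau of Sema3a, Sema3c, Plxna4 and Plxnb1 was thus in place by day 18, with changes from day 18 to day 32 of −0.14, −0.07, −0.05 and 0.16, none past the test.

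In the rescue experiment, far fewer genes passed the test. In Ezh2 null against control cells, Sema3a and Sema6b rose and Plxnb1 and Sema6a fell, so 2 of 31 rose where 1.20% of all genes did, and 2 fell where 0.755% did. All 4 had changed in the same direction at days 18 and 32 of the time course, on other arrays with another control group. The share of all genes called in null cells that did so was not computed, so this count has no background here. The median change of the 31 was −0.01, against −0.03 for all genes.

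Sema3a read 7.71 and 7.61 in control cells and 9.39 and 8.78 in Ezh2 null cells, without overlap. It rose by 1.43 ± 0.24 (2.69-fold, adjusted p = 0.0312). In the predeletion rescues it read 7.92 and 7.68 with Ezh1 and 7.66 and 8.03 with Ezh2, below the null arrays by 1.28 ± 0.24 (adjusted p = 0.0454) and 1.24 ± 0.24 (adjusted p = 0.028). With Ezh2 added after deletion the arrays read 8.51 and 7.75, so 1 lay just below the null arrays and 1 just above the control arrays. The post-deletion mean was 0.47 above control (95% interval −0.09 to 1.03) and 0.96 below null (adjusted p = 0.135), and passed neither test. Each Sema3a call here needs all its arrays: against control the adjusted p was 0.0634 to 0.0897 without any 1 of the 4, and against null it lay between 0.0924 and 0.246 for Ezh1 and between 0.0637 and 0.152 for Ezh2 predeletion rescue.

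Sema6b separated the null cells from the other groups. It read 6.31 and 6.29 in null cells and between 5.68 and 5.84 on the other 8 arrays. The null change was 0.62 ± 0.08 (adjusted p = 0.0147), and all 3 rescues lay below null, by 0.52 with Ezh1 (adjusted p = 0.0303), 0.56 with Ezh2 before deletion (0.015) and 0.55 with Ezh2 after it (0.0422). Sema6b was the 1 member past the test between post-deletion rescue and null cells, where 0.191% of all genes rose and 0.409% fell. Without null replicate 2 the null call was lost (0.0663), and the rescue calls were lost without null replicate 2 or either rescue array, with adjusted p up to 0.195, 0.133 and 0.382. Those of Ezh1 predeletion and Ezh2 post-deletion rescue were also lost without null replicate 1.

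Plxnb1 read 9.24 and 9.48 in control, 8.33 and 7.94 in null, 8.97 and 8.91 with Ezh1 and 8.97 and 9.25 with Ezh2 before deletion, and 8.78 and 8.83 with Ezh2 after it. The fall in null cells was −1.22 ± 0.16 (2.33-fold lower, adjusted p = 0.0113) and passed without any 1 of its 4 arrays (up to 0.0433), the 1 call against control in this experiment that did. It rests on the brighter probe set: the dimmer one changed by −0.30, and the mean of both by −0.76, still past the test. Both predeletion rescues lay above null, by 0.80 ± 0.16 (adjusted p = 0.0485) and 0.97 ± 0.16 (adjusted p = 0.0179), and the post-deletion rescue by 0.67 (adjusted p = 0.112). Every rescue array lay between the null and the control arrays or, once, just above the lower control array. The calls against null were lost without null replicate 2 or either rescue array (up to 0.266 and 0.155), and that of Ezh1 with the mean of both probe sets (0.0647).

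**Figure D3:**
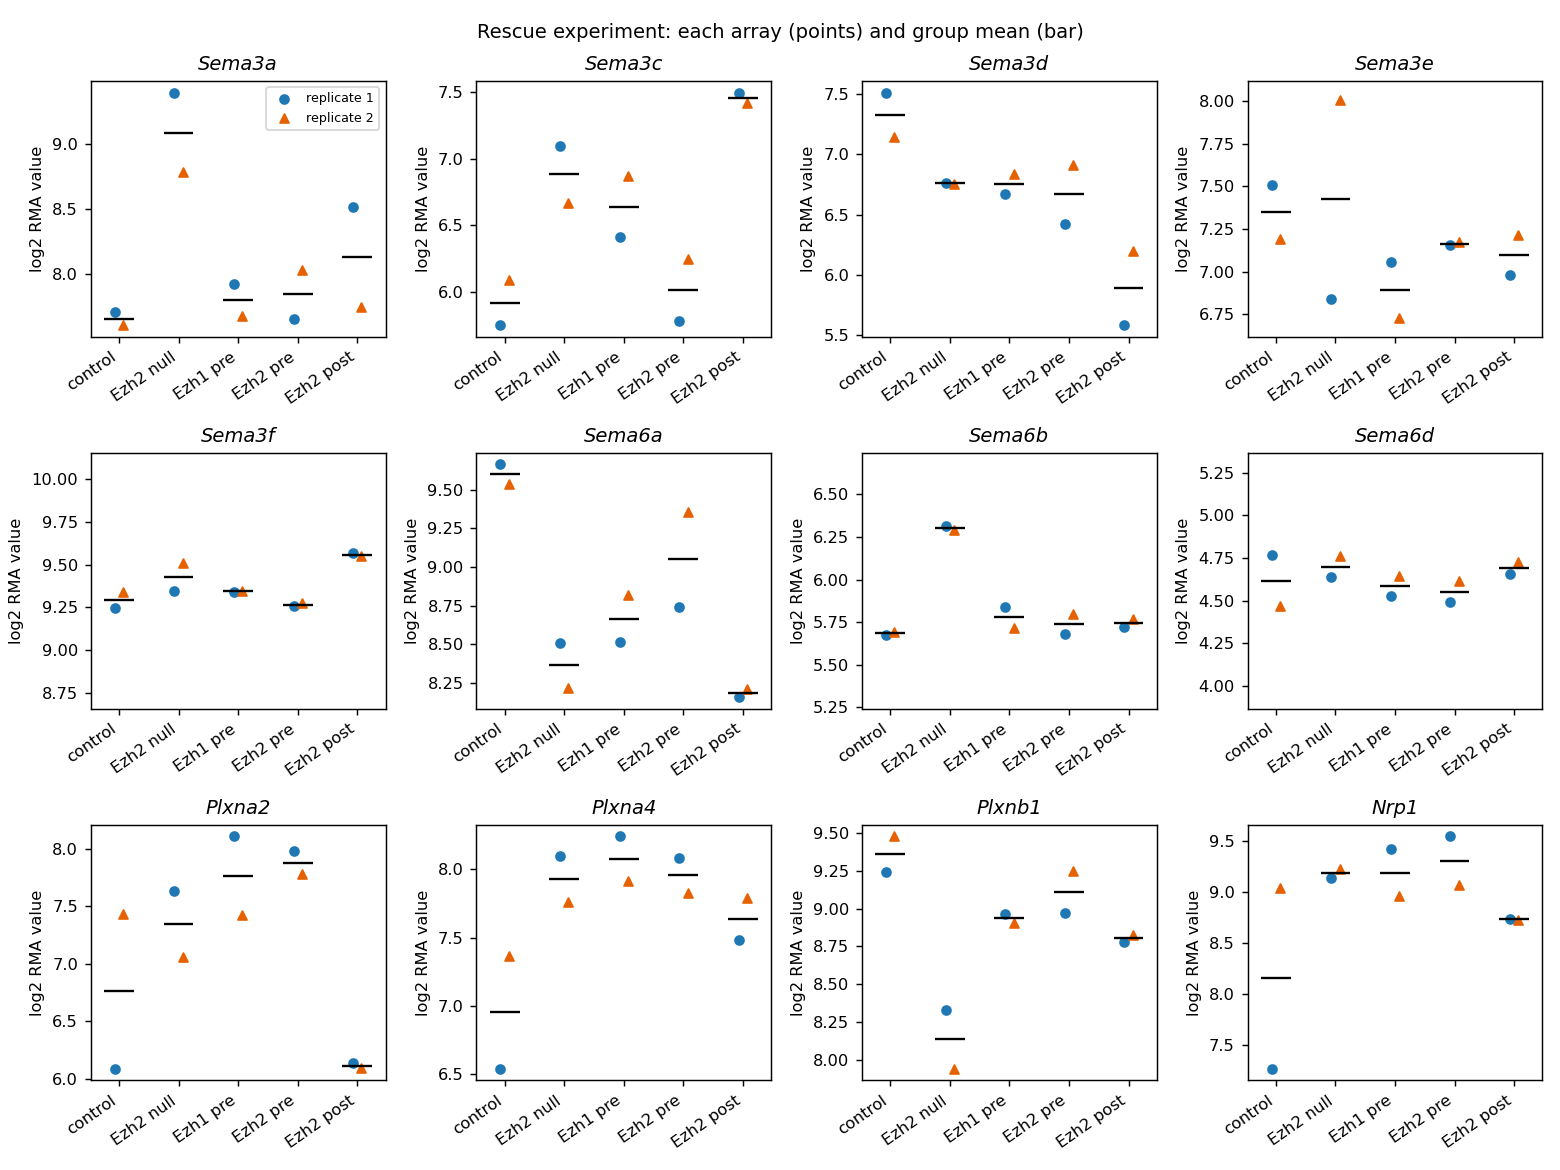
Log2 RMA value on each rescue experiment array (circles, replicate 1; triangles, replicate 2) with the group mean as a bar, for the same 12 genes; axes differ between panels and none spans less than 1.5 log2 units. Sema6b is high in the null cells alone, Plxnb1 is lowest there, Sema3c is highest and Sema3d and Sema6a lowest with Ezh2 added after deletion, and control replicate 1 stands apart for Nrp1 and Plxna2.

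Sema6a lay below control both in null cells and after Ezh2 was put back. It read 9.66 and 9.54 in control, 8.51 and 8.22 in null, 8.51 and 8.82 with Ezh1, 8.74 and 9.36 with Ezh2 before deletion, and 8.16 and 8.21 with Ezh2 after deletion. The change from control was −1.24 ± 0.20 in null (2.35-fold lower, adjusted p = 0.0258) and −1.42 ± 0.20 in post-deletion rescue (2.67-fold lower, adjusted p = 0.0278), against −0.93 (adjusted p = 0.23) and −0.55 (0.403) in the predeletion rescues. The post-deletion and null arrays differed by −0.18 (95% interval −0.64 to 0.28). The null call was lost without control replicate 1 or null replicate 2 (up to 0.128), and the post-deletion call without control replicate 1 or either post-deletion array (up to 0.302).

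In post-deletion rescue against control, 1 member rose and 2 fell, where 0.510% and 0.197% of all genes did. Beside Sema6a these were Sema3c and Sema3d. Sema3c read 5.75 and 6.09 in control, 7.10 and 6.67 in null, 6.42 and 6.87 with Ezh1, 5.78 and 6.25 with Ezh2 before deletion and 7.50 and 7.42 with Ezh2 after it. The null arrays lay above control without passing the test (0.96 ± 0.21, adjusted p = 0.0727), while the post-deletion arrays were highest, 1.54 ± 0.21 above control (2.90-fold, adjusted p = 0.0269) and 1.44 ± 0.21 above predeletion rescue with the same enzyme (2.72-fold, adjusted p = 0.0319). Sema3c was the 1 member past the test between those Ezh2 rescues, where 0.574% of all genes rose and 0.308% fell. The first call was lost without control replicate 1 or either post-deletion array (up to 0.339), and the second without any 1 of its 4 arrays (0.133 to 0.369).

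Sema3d was highest in control and lowest after post-deletion rescue. It read 7.51 and 7.14 in control, 6.76 on both null arrays, 6.67 and 6.83 with Ezh1, 6.42 and 6.91 with Ezh2 before deletion, and 5.58 and 6.20 with Ezh2 after it. Post-deletion arrays lay below all other arrays of the experiment. Their change from control was −1.44 ± 0.22 (2.71-fold lower, adjusted p = 0.0381), and the null change of −0.57 did not pass (adjusted p = 0.262). The call was lost without control replicate 1 or either post-deletion array (up to 0.369) and under quantile normalization (0.0536). Plxna2 read 7.98 and 7.78 with Ezh2 before deletion and 6.14 and 6.09 after it (−1.77 ± 0.42), and did not pass (adjusted p = 0.119).

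No member passed the limma test between a predeletion rescue and control: 0 rose and 0 fell with Ezh1 (all genes 0.0106% and 0%) and with Ezh2 (0% and 0%). The test could miss large changes: Ezh2 itself, 1.59 ± 0.17 above control in Ezh2 predeletion rescue, did not pass (adjusted p = 0.183). Member changes ran from −0.93 to 1.12 with Ezh1 and from −0.66 to 1.15 with Ezh2, so these counts do not show members held at control level. At an unadjusted p under 0.05, 3 lay higher and 5 lower with Ezh1, where 632 and 1205 of the 18820 genes did. With Ezh2, 3 lay higher and 4 lower (all genes 711 and 1217). Against null, 1 member rose (Plxnb1) and 2 fell (Sema3a and Sema6b) with each enzyme, where 0.861% and 1.44% of all genes did with Ezh1 and 3.15% and 4.00% with Ezh2. Between the enzymes no member passed either (0 rose and 0 fell, all genes 0.00531% and 0%). At an unadjusted p under 0.05, 1 lay higher and 0 lower there (all genes 132 and 79). For Sema3a the difference between Ezh1 and Ezh2 was −0.04 with a 95% interval of −0.60 to 0.52, and for Sema3c 0.63 with an interval of 0.13 to 1.12.

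**Figure D4:**
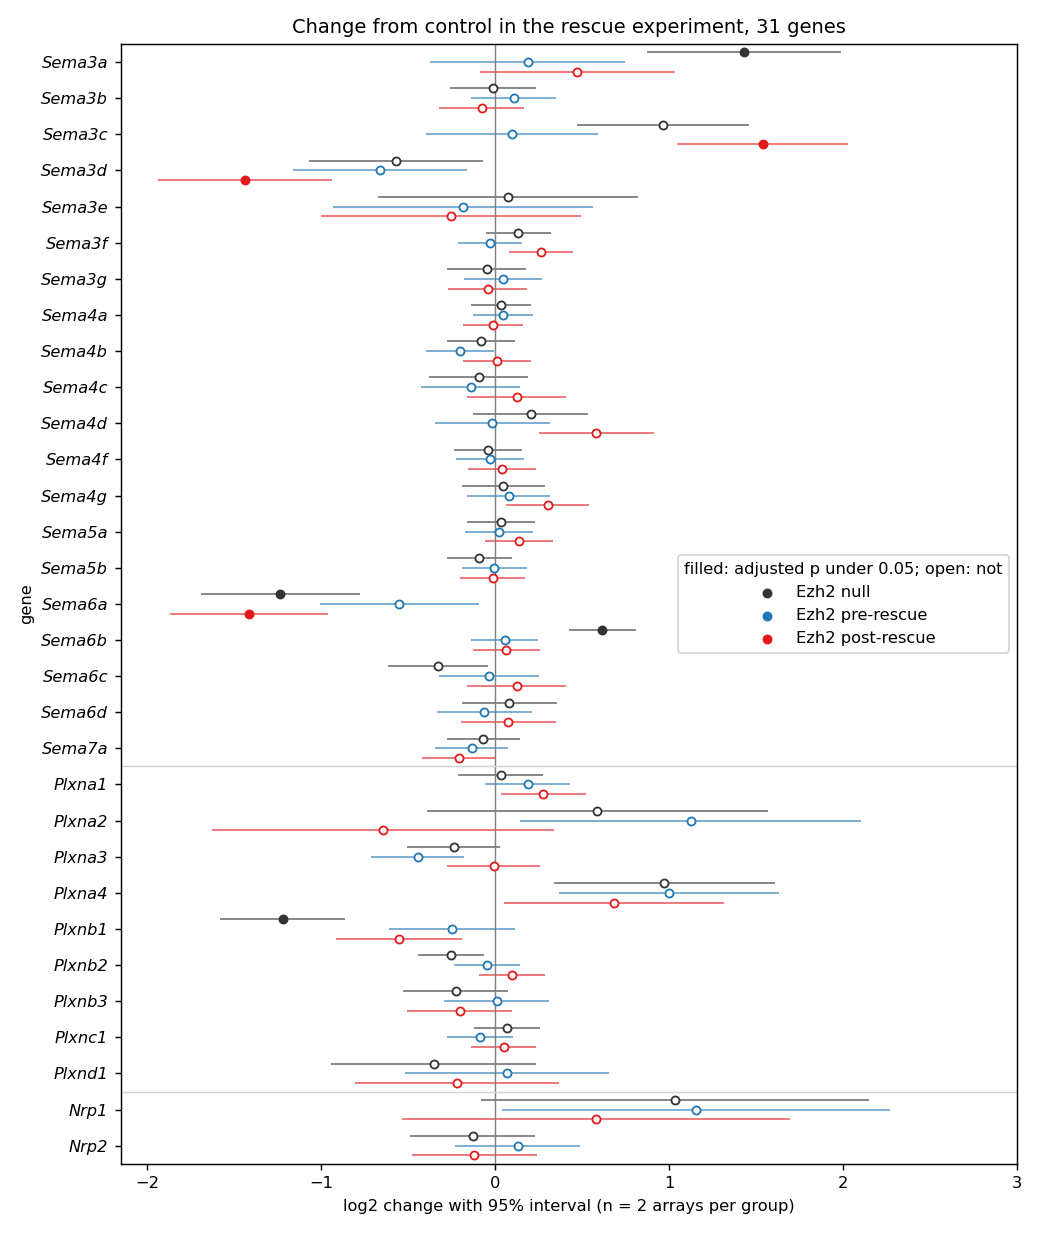
Log2 change from control for the 31 genes in Ezh2 null cells, Ezh2 predeletion rescue (pre-rescue) and Ezh2 post-deletion rescue (post-rescue), with 95% intervals (n = 2 arrays per group); filled points have an adjusted p under 0.05 by limma. Sema6a lies at −1.24 in null cells and −1.42 in post-deletion rescue, Sema3c lies furthest right in post-deletion rescue, and 0 of the predeletion points are filled.

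The receptors Plxna4, Nrp1 and Plxna2 were set against control arrays that disagree: 6.54 and 7.37 for Plxna4, 7.27 and 9.04 for Nrp1, and 6.09 and 7.43 for Plxna2, replicate 1 being the lower each time. The correlation of the 2 control arrays over all genes, 0.994, was the lowest of the 9 groups. Plxna4 lay between 7.49 and 8.24 on all null and rescue arrays, above both control arrays, and its null change of 0.97 ± 0.27 did not pass (adjusted p = 0.139). Nrp1 on the other 9 arrays lay between 8.73 and 9.54. Nrp2 lay between 9.22 and 9.74 on all 10.

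The effect of Ezh2 loss was set between experiments with a test of the difference itself, null minus control less day 32 minus vehicle. The labels give no time since deletion for the null cells, and each experiment has its own control. Unlike times may enter these differences, and their part was not tested. Of the 31, 0 had a signed effect significantly higher in the rescue experiment and 5 a lower one, where 2.48% and 5.64% of all genes did. Sema6d did not pass in null cells (0.08 ± 0.12) after rising 1.32 in the time course, a difference of −1.24 ± 0.18 (adjusted p = 0.00169). Its probe set was dim in the rescue experiment, at percentile 13.5 of genes, where changes are poorly resolved. The part of this dimness in the difference was not tested. Sema3c differed by −1.52 ± 0.27 (0.00468), Sema3f by −0.55 ± 0.11 (0.00966), Plxna3 by −0.67 ± 0.15 (0.0141) and Sema3a by −1.18 ± 0.33 (0.0463). Sema3e fell by 1.02 in the time course and stood at 0.07 in null cells, where its arrays read 6.84 and 8.01 around the control arrays of 7.51 and 7.19. Its difference of 1.09 did not pass the test (adjusted p = 0.0865). The SD over genes was 2.57 to 2.63 on the time course arrays and 2.21 to 2.29 on the others. With each array divided by its SD, Sema3c (adjusted p = 0.0302) and Sema6d (0.0141) still differed, and Sema3a, Sema3f and Plxna3 did not (0.272 to 0.424).

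**Figure D5:**
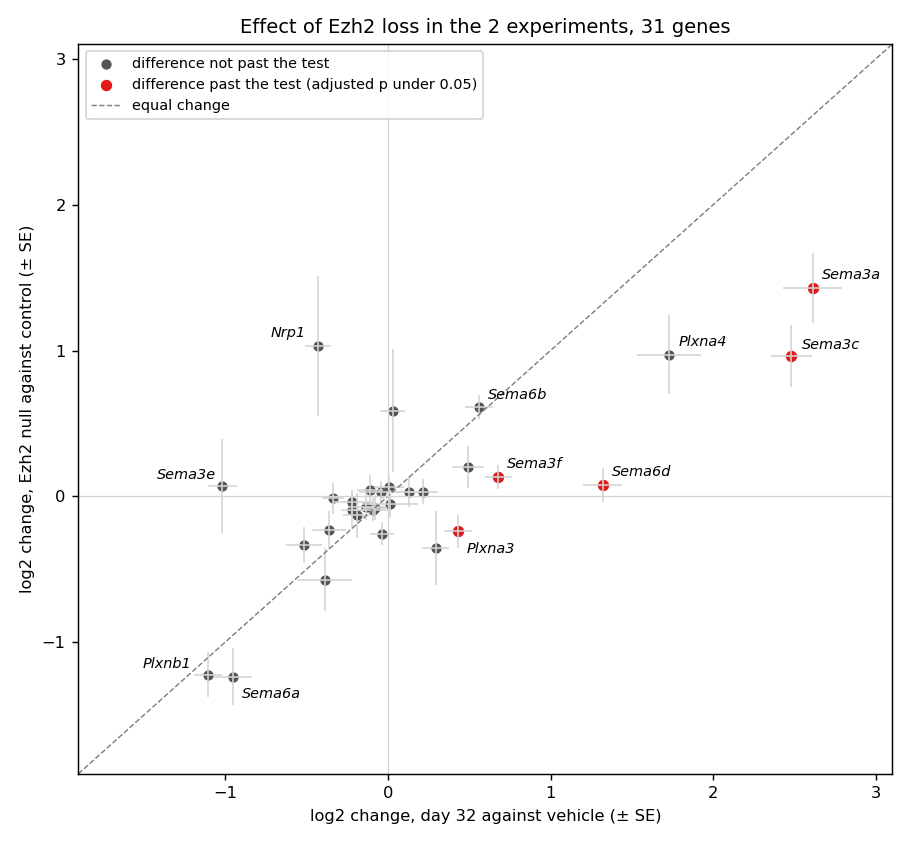
Log2 change ± SE in Ezh2 null against control cells (vertical axis) against that at day 32 against vehicle (horizontal axis) for the 31 genes; red points are those whose difference has an adjusted p under 0.05, and the dashed line marks equal change. Sema6b, Plxnb1 and Sema6a lie near the line, and Sema3a, Sema3c and Sema6d lie below it.

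The genes that work beside these ligands and receptors were taken from a list of 66 co-receptors, shared ligands and intracellular effectors, of which 60 were measured. At day 5, 10 rose and 4 fell (all genes 11.0% and 5.72%), at day 18, 11 rose and 9 fell (15.2% and 10.5%), and at day 32, 12 rose and 11 fell (18.4% and 14.2%), shares near those of all genes. Their median change was −0.03, 0.02 and 0.03, near that of all genes. In null cells 2 rose, Met and Flt1, and 0 fell (all genes 1.20% and 0.755%).

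Met, the hepatocyte growth factor receptor that associates with plexins B, had the largest changes on the list. It read 4.15 and 4.48 with vehicle, 5.21 and 5.29 on day 5, 6.26 and 6.46 on day 18, then 6.89 and 7.02 on day 32, a rise of 0.94, 2.05 and 2.64 ± 0.12 (adjusted p = 4.59e-07 at day 32). In the rescue experiment it read 5.11 and 4.89 in control and 6.48 and 7.71 in null (2.10 ± 0.39, adjusted p = 0.0427), 4.82 to 5.58 in the predeletion rescues, and 6.51 and 6.47 in post-deletion rescue (1.49 above control, adjusted p = 0.193). Met therefore rose while its partner Plxnb1 fell, at days 18 and 32 and in null cells, the Plxnb1 fall resting on its brighter probe set. At day 5 Met had already risen, and Plxnb1 did not pass (−0.17, adjusted p = 0.221). Against null it was 2.00 lower with Ezh2 before deletion (adjusted p = 0.0278), a call lost without either rescue array (up to 0.212). The null call of Met was lost without either control array (up to 0.129) and under quantile normalization (0.0507).

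Other partners changed at least 2-fold in some comparison. Ptk7, a kinase-like receptor linked to plexin signalling, rose by 1.22 on day 18 (adjusted p = 6.93e-06) and by 1.32 on day 32 (3.06e-06). Dpysl3, of the collapsin response mediator family that acts downstream of Sema3a, was level at day 5 (0.07), rose by 0.85 at day 18 (0.00392) and 1.99 ± 0.16 at day 32 (1.57e-05), and did not pass in null cells (0.17). Adamts1, a secreted metalloprotease, rose by 0.99, 1.23 and 0.91, and Flt1, a VEGF receptor that works with neuropilins, by 0.99, 0.94 and 0.98. Flt1 also rose in null cells (1.1 ± 0.18, adjusted p = 0.0276), a call lost without either control array or null replicate 2 (up to 0.145). That rise was not seen in null cells alone. In the predeletion rescues Flt1 read 7.27 to 7.66, against 6.61 and 6.77 in control and 7.64 and 7.95 in null. It lay 0.80 above control with Ezh1 and 0.77 with Ezh2, neither past the test (adjusted p = 0.253 and 0.286). Ezh2 predeletion rescue differed from null by −0.33 (adjusted p = 0.319). Tagln2, an actin-binding protein, fell by 0.89 at day 5 and then rose, by 0.98 at day 32 (adjusted p = 3.35e-05).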

How the data were processed

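RNA was hybridised to 18 Affymetrix Mouse Gene 1.1 ST arrays. The deposited values are log2 intensities that the authors made with RMA in the oligo package (versions not given in the sources used here), 1 table for the series. The methods describe a limma correction of a replicate batch in the rescue experiment. Whether the deposited values carry it is not stated, and the rescue fit keeps the replicate number as a block. No genome build is named for the arrays. RMA quantile-normalizes arrays to a shared distribution, which hides a global shift in RNA content, and it compresses changes of dim probe sets.

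Of 28440 probe sets, 21217 name 1 gene, 1881 several and 5342 none. Each gene was read from its brightest probe set on average, giving 18820 genes, with no filter on low values. Gene IDs matched the annotation for 21184 probe sets. Each experiment was fitted on its own in limma 3.58.1 (R 4.3.3), with residual spread shared over its groups (4 residual degrees of freedom in each), and a fit over all 18 arrays tested the difference between experiments. P-values were Benjamini-Hochberg adjusted over all genes, with a threshold of 0.05. The rank-based test of the methods was not used. The scripts were tested on simulated data.

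The members and lists were chosen with earlier results of these data known. Every member is accounted for. Array values are given for members past the test and at least 2-fold in a comparison with vehicle or control, for both neuropilins, and for examples by role, and partners are named where past the test and at least 2-fold in some comparison. The alternatives were median centring, quantile normalization within each experiment, leaving out the 30% dimmest genes, the mean of a gene's probe sets, an adjusted p under 0.15, adding or removing the replicate block, dividing each array by its SD, and leaving out each array in turn. Promoter windows come from RefSeq on GRCm38.p6.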

Additional observations from a re-analysis of the deposited data

Results flagged for a closer look

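The effect of Ezh2 loss differed between the experiments for 5 members, by limma's test of the difference with Benjamini-Hochberg adjustment over all genes. The labels give no time since deletion for the null cells, so the times compared may be unlike. The difference, rescue experiment less day 32, was −1.24 ± 0.18 (SE, adjusted p = 0.00169) for Sema6d, −1.52 ± 0.27 (0.00468) for Sema3c, −0.55 ± 0.11 (0.00966) for Sema3f, −0.67 ± 0.15 (0.0141) for Plxna3 and −1.18 ± 0.33 (0.0463) for Sema3a. The Sema6d, Sema3c and Sema3f calls passed without any 1 of the 8 arrays. That of Plxna3 was lost without vehicle replicate 1, day 32 replicate 2, control replicate 1 or null replicate 1 (up to 0.0549), and that of Sema3a without 6 of the 8 (up to 0.191). Under quantile normalization the calls of Sema3f (0.0561), Plxna3 (0.0911) and Sema3a (0.172) were lost, and with each array divided by its SD those of the same 3 genes (0.272 to 0.424). That of Sema3a was also lost under median centring (0.0516) and without the replicate block (0.059).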

How the results depend on the processing

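Each call on a member was recomputed under every alternative that applied to it and kept its gene, 832 checks in all. Of these, 721 kept direction and threshold, 111 lost the threshold and 0 reversed, and most of the losses came from leaving out 1 array. Leaving out the 30% dimmest genes removed Sema5a in the time course and Sema6d in the fit over all arrays. That filter therefore had 78 checks where median centring had 81, and those dim calls were not checked under it. Counts of members past the test moved over 1.5 times as follows. Median centring gave 14 against 9 at day 5 and 2 against 1 between the Ezh2 rescues. An adjusted p under 0.15 gave 9 against 3 from day 18 to day 32, 5 against 3 for Ezh2 predeletion rescue against null, 5 against 1 for post-deletion rescue against null and also against predeletion rescue, and 8 against 5 for the difference between experiments. Quantile normalization gave 5 against 3 from day 18 to day 32 and 2 against 5 for the difference, where dividing by the SD gave 3. The causes were not tested.

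Leaving out 1 array gave 7 to 9 members at day 5, 13 to 15 at day 18, 13 to 16 at day 32, 14 to 17 from day 5 to day 18 and 1 to 2 from day 18 to day 32. In the rescue experiment it gave 2 to 6 in null, 0 to 4 with Ezh1 and 0 to 3 with Ezh2 before deletion and 0 to 4 after it, all against control. Against null it gave 0 to 2, 0 to 4 and 0 to 1, between enzymes 0 to 0, between the Ezh2 rescues 0 to 0, and for the difference 3 to 6. The lone array left in a group is assumed to vary like the others.

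Same-numbered deviations correlated at −0.07 to 0.05 in the time course, which gave no sign of pairing by replicate number. In the rescue experiment they correlated at −0.43 to 0.54, with 6 of 10 pairs of groups negative. A replicate correction, if the deposited values carry it, lowers these correlations, so the check cannot decide whether the rescue samples were paired. With the replicate block the time course counts were 9, 15, 16, 17 and 2, and without it the rescue counts were 4 in null, 3 in post-deletion rescue, 3, 4 and 1 against null, 1 between the Ezh2 rescues and 4 for the difference. With 2 arrays a group, small changes of dim probe sets are poorly resolved.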
